A study of Mus musculus with 6 samples.

Results

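Muscle contracts when the nerve's electrical signal is turned into a release of stored calcium, a step called excitation-contraction coupling. It takes place at the triad, where a transverse tubule (T-tubule, an inward fold of the surface membrane) lies between cisternae of the sarcoplasmic reticulum (SR), the calcium store. The voltage sensor in the tubule, the dihydropyridine receptor (DHPR), opens the ryanodine receptor of the SR; junctophilins hold the membranes together, calsequestrins buffer calcium inside the store, and SERCA pumps return it. These genes are known as genes of differentiating and mature muscle, whereas muscle satellite cells (MuSCs), the stem cells of skeletal muscle, build no triads while they proliferate. The 10 genes looked up by symbol were *Jph1*, *Jph2*, *Ryr1*, *Ryr3*, *Atp2a1*, *Atp2a2*, *Cacna1s*, *Stac3*, *Casq1* and *Casq2*. Of these, 8 were among the 20654 genes of the count table, and *Ryr3* and *Cacna1s*, which encodes the voltage-sensing subunit of the DHPR, were not analysed here.

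RNA-seq was performed on MuSCs sorted from mice of C57BL/6 background, with 3 libraries labelled wild type and 3 labelled *Piezo1* cKO. *Piezo1* encodes a mechanosensitive calcium-permeable ion channel. The *Piezo1* cKO mice carried floxed *Piezo1* alleles with *Pax7* CreERT2/+, a tamoxifen-dependent Cre recombinase driven by the *Pax7* gene, so that deletion was directed to satellite cells; the study gives *Pax7* CreERT2/+ with unfloxed *Piezo1* as its control genotype, whereas the labels call these mice wild type. Cells had been sorted as VCAM1-positive and negative for CD31, CD45 and Sca1, a gate meant to leave out endothelial, immune and fibro-adipogenic cells. Cells of both groups were grown on Matrigel for 3 d in medium with 30% serum, 1% chick embryo extract, 10 ng/mL basic fibroblast growth factor and 1 μM 4-hydroxytamoxifen, the active form of tamoxifen. The age of the mice was not given in the sources used here. The comparison asks whether levels of these genes differed between cultured MuSCs with and without the deletion. The counts are of unique molecular identifiers (UMIs), tags that mark each cDNA molecule before PCR, and totals were 740936, 931168 and 891531 in wild type and 810096, 726378 and 769295 in *Piezo1* cKO. At these depths 3 counts, used as the floor of detection, correspond to between 3.35 and 4.31 CPM, a count scaled to a common library total; all CPM values here are scaled by TMM, edgeR's normalisation for library composition, over the genes tested.

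The targeted gene did not separate the groups. *Piezo1*, on chromosome 8 of GRCm38 from 122481698 to 122551329, had 11, 5 and 6 counts in wild type against 7, 12 and 9 in those labelled *Piezo1* cKO. The fitted log2 fold change was 0.42 (SE 0.46; adjusted p = 0.791 by edgeR's quasi-likelihood test), on few counts primed from the 3′ end of the transcript. The oligo-dT method counts the 3′ end, and whether that end lies in the deleted part of the gene was not given in the sources used here. Within these counts the directions below therefore rest on the labels. The study also checked the deletion by RT-qPCR and calcium imaging, measures that the counts do not hold.

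The libraries held the markers of the labelled cell type. The 7 satellite cell and myoblast markers summed to 2701, 2345 and 2598 CPM in wild type against 2714, 2149 and 2502 CPM in those labelled *Piezo1* cKO, with *Myod1*, a master regulator of the myogenic lineage, the most abundant. All 7 were tested and 0 were called by edgeR. An unadjusted p under 0.05 was found for 2 of them, and for 11.9% of all genes tested. These 2, named after their values were seen, went opposite ways. *Cdh15* was higher in every *Piezo1* cKO library (log2 fold change 0.53, adjusted p = 0.118 by edgeR), as were 8.20% of all genes tested. *Vcam1*, which encodes the antigen that the sort selected for, was lower in every one (-0.45, adjusted p = 0.185 by edgeR), as were 8.31%. *Pax7*, the defining transcription factor of MuSCs, had 10, 26 and 19 counts in wild type and 16, 5 and 12 counts in *Piezo1* cKO.

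*Jph2* was the member called in the main test, though not under every alternative. Its promoter, and that of *Casq2*, the member with 15 counts in 1 group and none in the other, are printed because these are the members on which the results turn. Each runs up to the base before the annotated start, in the direction of the gene, from RefSeq on GRCm38. Capitals mark CAGCTG, one form of the E-box that myogenic transcription factors are known to bind; CACCTG was searched as a second form on both strands.
Jph2: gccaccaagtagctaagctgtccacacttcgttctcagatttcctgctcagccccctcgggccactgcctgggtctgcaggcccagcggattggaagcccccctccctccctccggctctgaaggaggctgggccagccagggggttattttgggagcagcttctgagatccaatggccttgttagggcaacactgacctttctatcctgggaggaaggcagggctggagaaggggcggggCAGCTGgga
Casq2: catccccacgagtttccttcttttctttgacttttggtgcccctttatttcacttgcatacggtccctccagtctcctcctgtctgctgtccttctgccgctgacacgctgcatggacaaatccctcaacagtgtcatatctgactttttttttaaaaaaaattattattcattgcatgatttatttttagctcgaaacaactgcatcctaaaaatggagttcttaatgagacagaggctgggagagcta
The *Jph2* window (chr2:163397994-163398243, minus strand) held CAGCTG once, starting 9 bases before the start, and no CACCTG. The *Casq2* window (chr3:102086165-102086414, plus strand) held neither set of letters. Of 32851 promoter windows of the same length, 13.0% held CAGCTG and 17.2% held CACCTG. Promoters were listed for 5 of the 8 members, and of the others *Atp2a1* held CAGCTG once and *Casq1* held both forms once each, whereas *Ryr1* held neither; the windows of *Atp2a1* and *Ryr1* were shorter, at 215 and 222 bases. These matches describe the letters and not binding.

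Junctophilins span the gap between the surface membrane and the calcium store. *Jph2* encodes junctophilin 2, which is known from heart and skeletal muscle, and lies on chromosome 2 from 163336242 to 163397993 (GRCm38, minus strand). Its level was 38.8, 20.1 and 50.8 CPM in wild type, from 27, 18 and 43 counts, against 82.4, 77.9 and 55.7 CPM in those labelled *Piezo1* cKO, from 65, 59 and 42 counts. Every *Piezo1* cKO library was above every wild type library, with wild type 3 and *Piezo1* cKO 3 close to each other and wild type 2 the lowest of all. The mean rose from 36.6 ± 15.5 to 72.0 ± 14.3 CPM (SD, n = 3 per group), a log2 fold change of 0.99 (SE 0.24; 95% interval 0.52 to 1.46; adjusted p = 0.0237 by edgeR). For comparison, 0.784% of the 8551 genes tested were called in either direction, 0.468% were called higher, 0.316% were called lower, and 8.20% had CPM values higher in every *Piezo1* cKO library . Of the 2 members tested 1 was called, with a median log2 fold change of 0.42 over both against 0.00 over all genes tested, and with so few members these were not read further. *Jph2* was not called without wild type 2 (log2 fold change 0.68, adjusted p = 0.210) or without *Piezo1* cKO 2 (0.93, adjusted p = 0.369), and after cyclic loess normalisation it was 0.95 with an adjusted p of 0.0984. DESeq2 gave 0.97 with an unadjusted p of 0.00443 and no adjusted p, and 0.99 with an adjusted p of 0.257 when every p was adjusted, an alternative added after the data were seen; by default DESeq2 called 0.674% of the genes it gave an adjusted p.

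**Figure D1:**
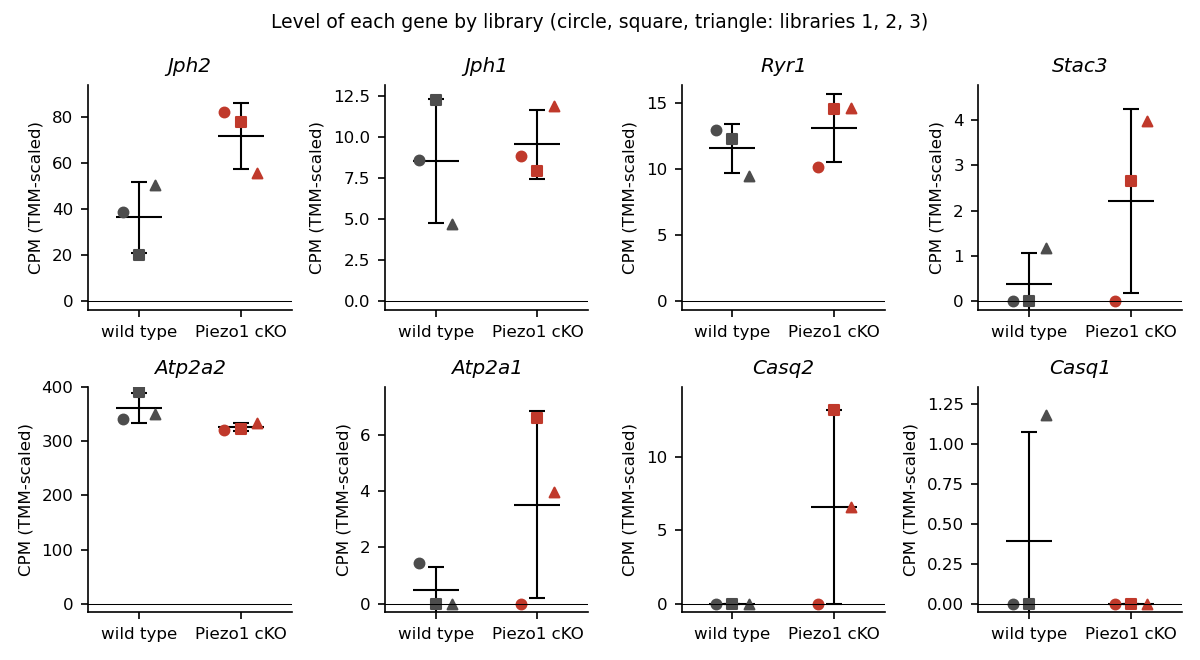
TMM-scaled CPM of the 8 measured genes in each library, with 3 wild type (grey) and 3 *Piezo1* cKO (red) libraries per panel; horizontal bars and whiskers are the mean ± SD, and the axes differ between panels. *Jph2* separates the groups, whereas *Casq2* and *Atp2a1* are high in *Piezo1* cKO 2 and 3 and near 0 elsewhere.

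*Jph1* encodes junctophilin 1, the skeletal muscle form, and lies on chromosome 1 from 16964560 to 17097889. It had 6, 11 and 4 counts in wild type and 7, 6 and 9 counts in *Piezo1* cKO, and the groups overlapped. Pooled over libraries, its rate in *Piezo1* cKO was 1.11 times that in wild type, with a 95% interval from 0.582 to 2.12 that covers counting error only. *Jph1* was below the filter on low counts, and in the fit without a filter its log2 fold change was 0.14 (SE 0.50; adjusted p = 0.939 by edgeR). A doubling of *Jph1*, as seen for *Jph2*, lay inside that pooled interval and was thus not excluded at this depth. The log2 ratio of *Jph2* to *Jph1* within each library was 2.08, 0.69 and 3.27 in wild type and 3.13, 3.19 and 2.16 in *Piezo1* cKO. These ratios overlapped and the mean differed by 0.81 (two-sided exact permutation p = 0.5; the smallest p that 3 libraries against 3 allow is 0.1), so the test had no means to pass 0.05. The difference was 0.15 without wild type 2 and 1.44 without wild type 3.

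*Ryr1*, which encodes the skeletal muscle ryanodine receptor and lies on chromosome 7 from 29003344 to 29125179, was detected in every library at a low level. Its counts were 9, 11 and 8 in wild type and 8, 11 and 11 in *Piezo1* cKO. The groups overlapped, and the pooled rate ratio was 1.14 with a counting interval from 0.656 to 1.97. The fit without a filter gave a log2 fold change of 0.17 (SE 0.43; adjusted p = 0.901 by edgeR). *Stac3*, an adaptor protein that couples the DHPR to the ryanodine receptor, lies on chromosome 10 from 127501686 to 127508823. It had 0, 0 and 1 counts in wild type and 0, 2 and 3 counts in *Piezo1* cKO, all at or under the floor of a single library. Its pooled rate ratio was 5.30 with a counting interval from 0.593 to 251, which contains no difference.

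Among the calcium pumps, *Atp2a2* was the abundant member. *Atp2a2* encodes SERCA2, whose forms include the pump of slow muscle and heart and the pump of non-muscle cells, and lies on chromosome 5 from 122453513 to 122502225. Its counts were 237, 351 and 297 in wild type and 253, 244 and 252 in *Piezo1* cKO, or 340.8, 391.5 and 350.7 CPM in wild type and 320.7, 322.3 and 333.9 CPM in *Piezo1* cKO. The *Piezo1* cKO libraries all lay below the wild type libraries, by a small margin between wild type 1 and *Piezo1* cKO 3, as was the case for 8.31% of all genes tested. The means were 361 ± 26.9 and 326 ± 7.23 CPM (SD, n = 3), and the log2 fold change of -0.15 (SE 0.13; 95% interval -0.41 to 0.11) did not pass the test (adjusted p = 0.708 by edgeR). After cyclic loess normalisation, which removes a trend of fold change with abundance, the value was -0.04. A log2 change of 1 in either direction lay outside its interval.

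*Atp2a1* encodes SERCA1, the pump of fast muscle fibres, and lies on chromosome 7 from 126445858 to 126463108. It had 1, 0 and 0 counts in wild type and 0, 5 and 3 counts in *Piezo1* cKO. The counts came from *Piezo1* cKO 2 and 3, while *Piezo1* cKO 1 had none, and the groups overlapped. The pooled rate ratio was 8.48 with a counting interval from 1.14 to 376, and the fit without a filter did not call it (adjusted p = 0.592 by edgeR, unadjusted p = 0.0356). Exons of *Rabep2* overlap *Atp2a1* on the opposite strand, and the strand setting of the counting was not given in the sources used here, so its few counts are uncertain. Exons on the opposite strand likewise overlap *Piezo1* (*Ctu2*) and, from genes known by Gm symbols, *Jph1*, *Ryr1*, *Atp2a2* and *Casq1*, whereas none overlap *Jph2*, *Stac3* or *Casq2*.

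The calsequestrins bind calcium inside the SR. *Casq1*, the form of fast muscle on chromosome 1 from 172209894 to 172219868, had 0, 0 and 1 counts in wild type and 0, 0 and 0 counts in *Piezo1* cKO, under the floor in every library. *Casq2*, the form of heart and slow muscle on chromosome 3 from 102086415 to 102146514, had 0, 0 and 0 counts in wild type and 0, 10 and 5 counts in *Piezo1* cKO. Its reads thus lay in 2 of the 3 *Piezo1* cKO libraries, and *Piezo1* cKO 1 was at 0 as in wild type. Pooled over libraries, 15 counts against 0 gave a rate ratio whose 95% counting interval had a lower limit of 3.80, and no fold is given. In the fit without a filter on low counts, which called 0.670% of 19247 genes, *Casq2* was called (adjusted p = 0.0166 by edgeR); the fitted fold of a gene at 0 in 1 group depends on the prior count and is not given. The call was lost without wild type 2, wild type 3, *Piezo1* cKO 2 or *Piezo1* cKO 3, with adjusted p of 0.142, 0.0687, 0.676 and 0.0778. Adding the replicate number as a block also ended the call (adjusted p = 0.0667 by edgeR). DESeq2 gave *Casq2* an unadjusted p of 0.179 and no adjusted p.

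Summed over the 8 measured members, the level was 403, 436 and 418 CPM in wild type and 422, 445 and 431 CPM in *Piezo1* cKO, most of it *Atp2a2*. *Jph2* was thus a small part of the total. The sum of *Atp2a1*, *Stac3*, *Casq1* and *Casq2*, a grouping made after their values were seen, was 1, 0 and 2 counts in wild type and 0, 17 and 11 counts in *Piezo1* cKO. *Piezo1* cKO 2 and 3 held the counts of *Casq2* and nearly all of those of *Atp2a1* and *Stac3*, whereas the only count of *Casq1* was in wild type 3. *Jph2* was distributed otherwise, with its highest level in *Piezo1* cKO 1.

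Markers of myocytes, the differentiating and fusing cells, had their highest sums in *Piezo1* cKO 2 and 3. Of a list of 10 such markers 9 were in the table, and they summed to 305, 118 and 283 CPM in wild type and to 542, 1524 and 726 CPM in *Piezo1* cKO, with *Acta1*, the skeletal muscle actin, the most abundant. Wild type 2, the lowest library for *Jph2*, was also the lowest for these markers. *Piezo1* cKO 2, the highest for *Casq2* and *Atp2a1*, was also the highest for them. Within *Piezo1* cKO, by contrast, *Jph2* was highest in *Piezo1* cKO 1, which had the lowest marker sum of that group. *Piezo1* cKO 1 had a larger marker sum than any wild type library and yet no count of *Atp2a1*, *Stac3*, *Casq1* or *Casq2*. Their part in the levels of *Jph2* and the other members was not tested, and in bulk RNA fewer cells of a type and less RNA per cell cannot be told apart, nor can more of either. *Myog*, the transcription factor that starts terminal differentiation, had 40, 3 and 45 counts in wild type and 63, 203 and 92 counts in *Piezo1* cKO, with a log2 fold change of 2.09 (SE 0.89; adjusted p = 0.468 by edgeR). Every *Piezo1* cKO library was above every wild type library for *Myog*, as for 8.20% of all genes tested, with a wide spread within both groups.

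**Figure D2:**
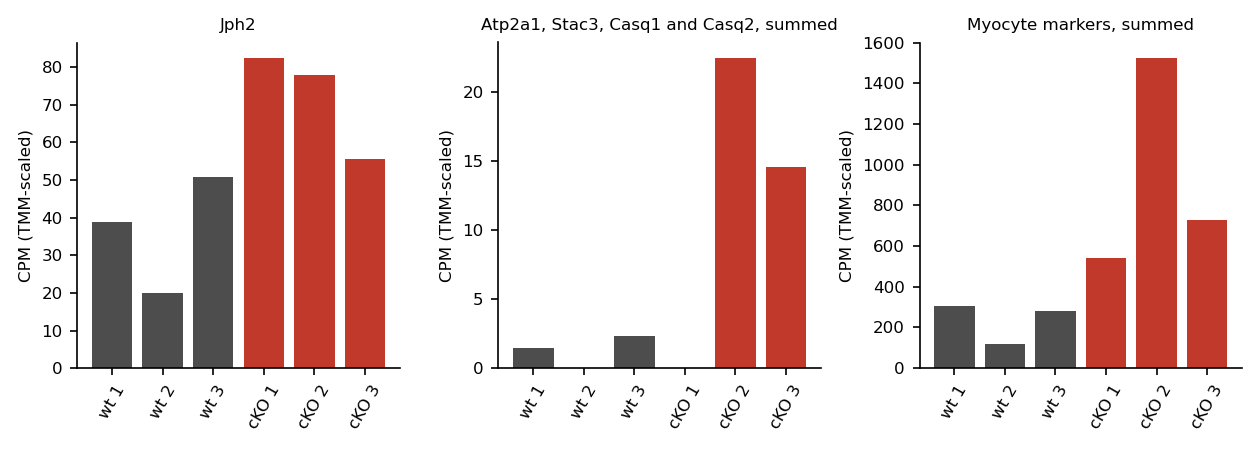
TMM-scaled CPM per library for *Jph2*, for the sum of 4 members with few counts and for the sum of 9 myocyte markers; bars are single libraries, wild type in grey and *Piezo1* cKO in red. *Piezo1* cKO 2 and 3 hold most of the summed counts of the 4 members, *Piezo1* cKO 2 has the highest marker sum at 1524 CPM, and *Jph2* is highest in *Piezo1* cKO 1 at 82.4 CPM.

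Of the 6 myocyte markers tested, 0 were called by edgeR. An unadjusted edgeR p under 0.05 was found for 5 of them, and for 11.9% of all genes tested. All 6 had a fold change above 0, as did 4290 of the 8551 genes tested. The fold changes on the log2 scale were 1.97 for *Mymk*, which encodes the fusion protein myomaker, 2.01 for *Acta1*, 1.19 for the fast troponin gene *Tnnt3*, 2.72 for the slow troponin gene *Tnnc1* and 2.72 for the myosin light chain gene *Mylpf*, with adjusted p between 0.241 and 0.415. Without *Piezo1* cKO 2 the values of *Mylpf* and *Myog* were 1.74 and 1.45 (adjusted p = 0.262 and 0.820 by edgeR). DESeq2 called *Acta1* (log2 fold change 2.00, adjusted p = 0.00485). Without a filter edgeR called *Mymk*, *Tnnt3* and *Tnnc1* (adjusted p = 0.00419, 3.37e-07 and 8.00e-10). With the filter, *Mymk* (1.53, adjusted p = 6.60e-05) and *Tnnt3* (0.83, adjusted p = 0.00194) were called without wild type 2. *Acta1* and *Tnnc1* were called without *Piezo1* cKO 1 (adjusted p = 2.62e-15 and 9.38e-14) and without *Piezo1* cKO 2, the library with the highest sum (log2 fold changes 1.55 and 1.99, adjusted p = 0.00110 and 0.0115). *Mymx*, *Myh3* and *Myh8* were below the filter, with 2, 0 and 1 counts of *Mymx* in wild type against 3, 13 and 7 in *Piezo1* cKO, 1, 0 and 0 counts of *Myh3* against 9, 35 and 4, and 0, 0 and 0 counts of *Myh8* against 1, 1 and 0.

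Markers of other cell types were summed in the same way. The 4 endothelial markers measured summed to 11.5, 5.58 and 1.18 CPM in wild type and 3.80, 5.28 and 18.6 CPM in *Piezo1* cKO, led by *Tek*, with *Tie1* at 0 in every library. The 3 immune markers, led by *Cd68*, summed to between 10.1 and 27.9 CPM, and the 4 Schwann cell markers, led by *Mbp*, to between 1.32 and 10.1 CPM. The immune sum of 27.9 CPM was that of wild type 2. In that library *Lyz2*, named after its values were seen, had 11 counts, against 0 or 1 in every other library. The groups overlapped in these 3 lists. The 4 fibro-adipogenic markers summed to 84.8, 197 and 120 CPM in wild type and 57.0, 42.3 and 62.3 CPM in *Piezo1* cKO, led by *Cd34*, which quiescent MuSCs also express and which had a log2 fold change of -1.59 (SE 0.40; adjusted p = 0.181 by edgeR and 8.24e-04 by DESeq2), with *Pi16* at 0 in every library. *Cd34* held most of that sum, with 316 counts over wild type and 97 over *Piezo1* cKO. *Ly6a*, which encodes the Sca1 antigen that the sort selected against and was named after its values were seen, went the other way, with 2, 2 and 3 counts in wild type and 5, 8 and 9 in *Piezo1* cKO. *Cd34* was called by edgeR without wild type 1 (-1.83, adjusted p = 9.00e-06) or wild type 2 (-1.13, adjusted p = 2.32e-04). The 5 pericyte and smooth muscle markers summed to 46.0, 31.2 and 44.9 CPM in wild type and 55.8, 58.1 and 83.5 CPM in *Piezo1* cKO, led by *Cspg4* (log2 fold change 0.76, SE 0.25; adjusted p = 0.143 by edgeR). The groups did not overlap in these last lists, and their part in the members' levels was not tested.

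The partners of the members were described through 5 lists with 70 genes, of which 60 were in the table and 38 were tested. Of the 38, *Speg* was called higher and 0 were called lower, against 0.468% and 0.316% of all genes tested. A fold change above 0 was found for 23 and below 0 for 15. The median log2 fold change was 0.07 against 0.00 over all genes tested. Of the 38, 8 had an unadjusted p under 0.05, which 11.9% of all genes tested had. DESeq2 gave an adjusted p to 23 of the 60 and called 0.

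Of the genes that form T-tubules and triads, 9 were measured, 5 were tested and 1 was called, against 0.784% of all genes tested. *Speg* encodes a striated muscle kinase known at the triad, where it binds myotubularin, and lies on chromosome 1 from 75375297 to 75432320. Its counts were 8, 18 and 12 in wild type and 27, 36 and 26 in *Piezo1* cKO. The groups did not overlap, as was the case in this direction for 8.20% of all genes tested. The mean rose from 15.3 ± 4.39 to 38.7 ± 7.63 CPM (SD, n = 3), a log2 fold change of 1.31 (SE 0.30; adjusted p = 0.0114 by edgeR). *Speg* was not called without wild type 1 (1.17, adjusted p = 0.0521) or without *Piezo1* cKO 2 (1.14, adjusted p = 0.260), and DESeq2 gave 1.31 and no adjusted p, or 0.185 when every p was adjusted. *Bin1*, which bends the tubule membrane and was the most abundant of the list, was at 446 ± 50.8 and 508 ± 74.9 CPM (log2 fold change 0.19, adjusted p = 0.621 by edgeR). The membrane-scission dynamin *Dnm2* (0.25) and the lipid phosphatase *Mtmr2* (-0.31) also did not pass the test. *Cav3*, the muscle caveolin, was below the filter, with 2, 1 and 2 counts in wild type and 1, 13 and 2 in *Piezo1* cKO; it was named after its values were seen, and its counts lay mainly in *Piezo1* cKO 2.

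**Figure D3:**
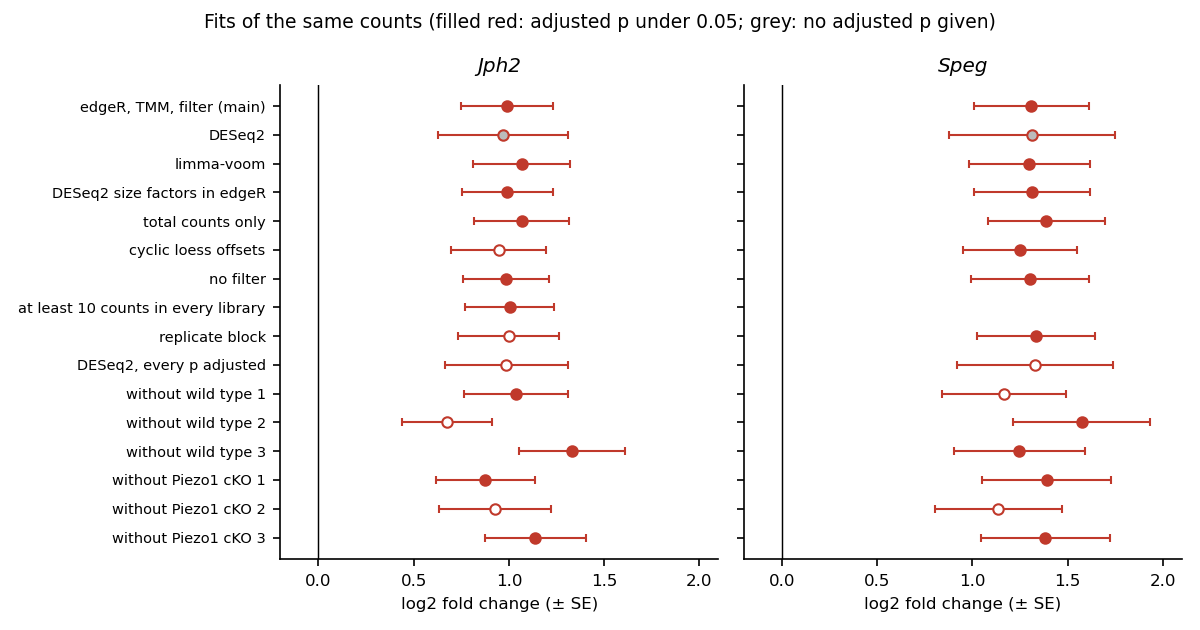
Log2 fold change of *Jph2* and *Speg* with its SE under each fit of the same counts; filled red points have an adjusted p under 0.05, open points do not, and grey points were given no adjusted p. For *Jph2* the values lie between 0.68, without wild type 2, and 1.33, without wild type 3, all above 0.

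Of the partners of the DHPR and the ryanodine receptor, 15 were measured and 11 tested, and 0 were called by edgeR. An unadjusted edgeR p under 0.05 was found for 4 of them, and for 11.9% of all genes tested. The median log2 fold change of the 11 was 0.20. The DHPR subunit gene *Cacng1* had 43, 20 and 37 counts in wild type and 48, 75 and 69 in *Piezo1* cKO, a log2 fold change of 1.01 (SE 0.26; adjusted p = 0.0567 by edgeR). Its lowest value was again in wild type 2, and it was called with DESeq2 size factors in edgeR (adjusted p = 0.0491), with no filter or a stricter filter, and without wild type 1 or *Piezo1* cKO 1. It was not called by DESeq2 (adjusted p = 0.202), by limma-voom, after cyclic loess (0.183) or without any of the other 4 libraries (0.121 to 0.495). *Cacnb1*, the DHPR beta subunit, had 10, 7 and 17 counts in wild type and 26, 16 and 23 in *Piezo1* cKO (1.01, SE 0.34; adjusted p = 0.159 by edgeR). *S100a1*, a calcium-binding protein of the ryanodine receptor, had a log2 fold change of 0.63 (SE 0.22; adjusted p = 0.166 by edgeR), which was 0.81 without *Piezo1* cKO 1 (adjusted p = 0.0315) and 0.41 without *Piezo1* cKO 2 (adjusted p = 0.728).

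Of the other SR membrane and lumen genes, 8 were measured and 3 tested, and 0 were called by edgeR. *Tmem38a*, the muscle form of the potassium channel that balances calcium release, had 16, 14 and 21 counts in wild type and 15, 49 and 29 in *Piezo1* cKO (log2 fold change 0.95, SE 0.33; adjusted p = 0.193 by edgeR). Its *Piezo1* cKO libraries ranged from the wild type level in *Piezo1* cKO 1 to the highest in *Piezo1* cKO 2. *Srl*, which encodes the luminal calcium-binding protein sarcalumenin, had a log2 fold change of 0.65 (adjusted p = 0.439), and *Tmem38b*, the broadly expressed channel form, of 0.41 (adjusted p = 0.585). Without *Piezo1* cKO 1, *Tmem38a* was called (log2 fold change 1.29, adjusted p = 0.00349 by edgeR), and without *Piezo1* cKO 2 its log2 fold change was 0.44 (adjusted p = 0.832) and that of *Srl* 0.40 (adjusted p = 0.869). The 5 genes of the list below the filter were at 0 to 4 counts in each library.

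Of 10 measured genes of sarcolemmal excitation, 8 were tested and 0 were called by edgeR. *Chrng*, the embryonic subunit of the acetylcholine receptor, had 56, 27 and 42 counts in wild type and 92, 105 and 62 in *Piezo1* cKO. Its log2 fold change was 1.11 (SE 0.29, adjusted p = 0.118 by edgeR and 0.0605 by DESeq2). The groups did not overlap, as was the case in this direction for 8.20% of all genes tested. *Chrng* was called without wild type 1 (adjusted p = 7.70e-05), wild type 2 (0.00920), *Piezo1* cKO 1 (0.0491) or *Piezo1* cKO 3 (0.00897), and with no filter or the stricter one. It was not called without wild type 3 (0.270) or *Piezo1* cKO 2 (0.430). The subunit genes *Chrnd* (0.28, adjusted p = 0.468 by edgeR) and *Chrna1* (-0.19, adjusted p = 0.678, and 0.07 after cyclic loess normalisation) had smaller fold changes. Of 18 measured genes of non-muscle calcium stores, 11 were tested and 0 were called by edgeR, with a median log2 fold change of -0.04. *Calr*, the calcium-binding chaperone of the endoplasmic reticulum, went from 677 ± 49.3 to 538 ± 59.8 CPM (-0.33, adjusted p = 0.281), with *Rcn2* at -0.24 and *Rcn1* at 0.16.

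**Figure D4:**
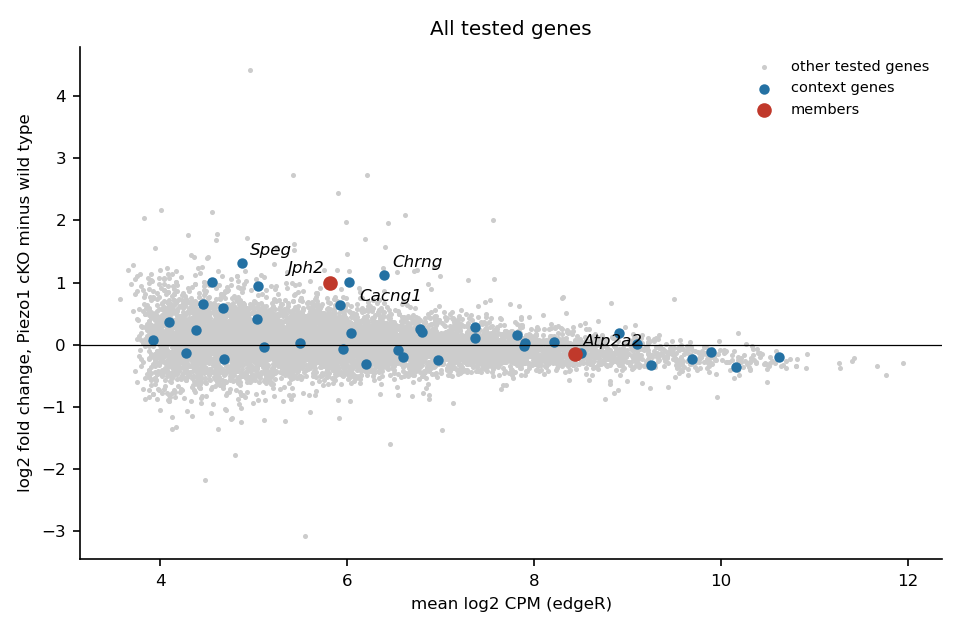
Log2 fold change of *Piezo1* cKO over wild type against the mean log2 CPM for the 8551 genes tested by edgeR (grey), with the 2 members tested in red and the 38 partner genes in blue. *Jph2* (0.99), *Speg* (1.31), *Cacng1* (1.01) and *Chrng* (1.11) lie above 0, and *Atp2a2* (-0.15) lies just below it.

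The 2 members tested were also summarised as a profile, the mean of their centred log2 CPM, over the 6 libraries. The 2 had fold changes of opposite sign (0.99 for *Jph2* and -0.15 for *Atp2a2* on the log2 scale). *Jph2* ranged from 20.1 to 82.4 CPM and *Atp2a2* from 320.7 to 391.5 CPM, so the profile mostly followed *Jph2*. The profile was lowest in wild type 2 at -0.51 and highest in *Piezo1* cKO 1 at 0.31. Among 7380 other genes with a mean of at least 20 CPM, the closest profiles were those of *Man2b1* (Pearson r = 0.995), *Sh3bp2* (0.983), *Socs2* (0.981), *Chfr* (0.981) and *Lsp1* (0.977). These correlations describe 6 libraries that differ in group and in library composition. The 5 genes were chosen for a profile that differs between the groups, so a call among them was favoured beforehand. All 5 were higher in every *Piezo1* cKO library than in every wild type library. Of the 5, *Lsp1*, which encodes an actin-binding protein of leukocytes, was called (log2 fold change 0.75, SE 0.20, adjusted p = 0.0438 by edgeR), as were 0.784% of all genes tested. That call was lost without wild type 2 (0.56, adjusted p = 0.301) and without *Piezo1* cKO 1, 2 or 3 (adjusted p = 0.0613, 0.420 and 0.0634), and DESeq2 did not make it (adjusted p = 0.307).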

How the data were processed

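The authors primed 500 pg of RNA per library with oligo-dT that carried a barcode, ran 12 PCR cycles, mapped reads to GRCm38 with STAR 2.7.9a, assigned them with featureCounts 2.0.1 and counted UMIs with UMI-tools 1.1.1, per the labels and the submitters' processing notes; the deposited table holds raw counts per gene. The settings for strand and multi-mapping reads were not given in the sources used here.

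Counts were analysed in R 4.3.3 with edgeR 4.0.16 (TMM, robust quasi-likelihood fit, Benjamini-Hochberg adjustment over all 8551 genes with enough counts, minimum count 10, called at an adjusted p under 0.05). *Piezo1* was kept regardless of this filter. Genes below it were described by counts, pooled rate ratios with exact 95% intervals for counting error only, and a fit without the filter. Alternatives were DESeq2 1.42.0, limma-voom (limma 3.58.1), other normalisations and filters, the replicate number as a block, and each library left out in turn. The calculations were tested on simulated data. Nothing in the sources links same-numbered mice, and p-values measure the spread between these 3 libraries per group. Coordinates are from GENCODE on GRCm38.

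The members, the lists and the tests were chosen with earlier results of these data known. The text names *Piezo1*, all members, every partner gene called, the 3 with the smallest p and the most abundant of each list, all myocyte markers, the most abundant gene of each other marker list and the 5 genes closest to the members' profile; any other gene is marked, except *Pax7*, named as the defining marker, and *Tie1* and *Pi16*, named because they were at 0 in every library. A few genes that entered the fits and the counts of their lists have no value of their own in the text.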

Additional observations from a re-analysis of the deposited data

How the results depend on the processing

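The number of genes called was 67 in the main analysis, 27 with DESeq2, 23 with DESeq2 when every p was adjusted, 38 after cyclic loess normalisation and 129 without a filter, and leaving out 1 library gave a range from 6 genes, without *Piezo1* cKO 2, up to 174 genes when *Piezo1* cKO 1 was dropped. It was 105 without wild type 1, 131 without wild type 3 and 29 without *Piezo1* cKO 3. Scaling by total counts alone called 67 genes, of which 73.1% were higher, against 59.7% in the main analysis, whereas of the 27 called by DESeq2 only 12 (44.4%) were higher and 15 were lower. Of the members, 1 was called in the main analysis, 0 with either use of DESeq2 (which gave *Jph2* no adjusted p by default) and 0 after cyclic loess, 2 without a filter (*Jph2* and *Casq2*), and 0 to 1 with 1 library left out. Of the partner genes, 1 was called in the main analysis, 0 with either use of DESeq2, 2 with DESeq2 size factors in edgeR, 3 without a filter, 2 with at least 10 counts in every library (a filter that removes *Speg*), and 0 to 5 with 1 library left out. *Jph2* kept its direction in all 14 alternatives that gave an adjusted p and was called in 9. *Atp2a2* was not called and stayed below 0 in 15 alternatives.

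Among the named genes that were refitted under the alternatives, directions changed for 3, none of them called. *Jph1* without a filter was 0.14 and ranged from -0.16 (without wild type 3; -0.05 without *Piezo1* cKO 3) to 0.53. *Chrna1* and *Myod1* were -0.19 and -0.15 and became 0.073 and 0.091 after cyclic loess normalisation, which removes a trend of fold change with abundance. The cause of the other changes was not tested.

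A fit that added a replicate block called 46 genes, of which 36 were shared with the main analysis, 0 members were called and *Jph2* had a log2 fold change of 1.00 (adjusted p = 0.0948). In the same fit *Acta1* and *Tnnc1* were called (adjusted p = 0.00418 and 0.00463), and without a filter *Casq2* was not (adjusted p = 0.0667). Same-numbered libraries did not deviate together: the correlations of their deviations from the group means were -0.14, -0.20 and 0.01, and not every library correlated best with its own number.

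Depth limits *Jph1*, *Ryr1*, *Atp2a1*, *Stac3*, *Casq1* and *Piezo1*, which had at most 12 counts in any library; the absence of a call for them is no evidence of equal levels.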
